A study of Mus musculus with 2 samples.

Results

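The Notch pathway is represented here by 10 genes, which were chosen by name as the array's own annotation spells them. They comprise 4 receptors (Notch1, Notch2, Notch3 and Notch4), 3 ligands (Dll1, Dll4 and Jag1) and 3 target genes (Hes1, Hey1 and Heyl). The array names 18420 genes by a symbol, and these 10 were covered by 15 probes in 33 spots. The samples were 2 tumours formed under the skin of mice by RMS3, which the labels call a PRMS cell line, an abbreviation they leave unexplained. Each followed an injection of 1000000 cells in 200 µl of buffered saline into a male C57BL/6J mouse and was taken at 2 weeks. The treatment text describes the harvested tumours as metastatic, whereas the other labels place them under the skin where the cells were injected. Both tumours carry the same treatment, both derive from 1 line, and no control sample of any kind was analysed here. The labels do not say whether the tumours came from separate mice. With 1 tumour on each side, the difference between them has no replicate check and no p-value.

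Notch receptors are membrane proteins that bind Delta-like and Jagged ligands on neighbouring cells. Binding exposes the receptor to cleavage, first by an Adam protease and then by gamma-secretase, and the freed intracellular part joins Rbpj and a Mastermind protein on DNA to switch on the Hes and Hey genes, which encode transcriptional repressors. In skeletal muscle the pathway is known for holding satellite cells undifferentiated. In blood vessels Notch4 and Dll4 are typical of endothelium, and Notch3 of the mural cells around it.

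The RefSeq promoter table (GRCm38.p6) gave windows of 300 bases, from 250 before to 50 after a start site, for 7 of the 10 genes. Hes1, Hey1 and Heyl had no match. Those of Notch1 and Dll1 are shown because these 2 genes have a probe that was printed 10 times. Capitals mark matches, on either strand, to CACNAG, the N-box that Hes proteins are known to bind.
Notch1, chr2:26503773-26504072, minus strand: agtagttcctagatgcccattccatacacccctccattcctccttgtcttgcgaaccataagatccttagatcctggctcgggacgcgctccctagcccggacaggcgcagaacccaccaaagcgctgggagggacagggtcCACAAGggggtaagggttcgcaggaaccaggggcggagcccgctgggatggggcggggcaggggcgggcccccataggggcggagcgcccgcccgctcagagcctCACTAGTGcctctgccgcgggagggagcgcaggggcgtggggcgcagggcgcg
Dll1, downstream start, chr17:15375774-15376073, minus strand: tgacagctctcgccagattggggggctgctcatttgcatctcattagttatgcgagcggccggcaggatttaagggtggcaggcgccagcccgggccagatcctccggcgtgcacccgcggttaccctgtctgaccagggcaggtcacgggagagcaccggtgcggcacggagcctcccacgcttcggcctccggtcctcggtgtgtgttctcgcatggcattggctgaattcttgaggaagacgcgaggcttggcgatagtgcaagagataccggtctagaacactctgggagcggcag
Dll1, upstream start, chr17:15376883-15377182, minus strand: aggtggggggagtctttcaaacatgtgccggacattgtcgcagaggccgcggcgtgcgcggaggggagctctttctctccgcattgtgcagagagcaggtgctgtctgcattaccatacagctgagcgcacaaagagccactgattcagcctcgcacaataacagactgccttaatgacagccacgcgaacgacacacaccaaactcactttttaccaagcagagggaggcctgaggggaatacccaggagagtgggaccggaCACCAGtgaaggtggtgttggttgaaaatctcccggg
The Notch1 window held 3 matches to CACNAG, of which 2 overlap on opposite strands, the upstream Dll1 window held 1 and the downstream one 0. Of all 32851 promoter windows 42.5% held this motif. Neither GTGGGAA, the core of the site bound by Rbpj, nor the E-box CACGTG was found in any of the 8 windows of the 7 genes, and 6.38% and 7.15% of all windows held them. A match is a run of letters and does not show that a protein binds there.

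The 2 tumours were read on 2 single-colour arrays of the same slide and scan. The surface of array 1 carried 1055 non-control spots with an outlier flag, against 43 on array 2, and unflagged spots beside such flags were also more often far apart between the arrays. Among spots well above background on both arrays, of 5863 unflagged ones within 2 rows and columns of a bad spot, 21.8% were at least 2-fold higher in tumour 2, against 2.76% of the 19441 farther away. A bad spot is one with an outlier flag on array 1 or a high local background on array 2. Values are therefore given from spots away from flags, 72.2% of all non-control spots, and those near flags are named as such. On the kept spots the 75th percentile of the signal was 995 on array 1 and 901.9 on array 2, and 63.7% and 65.8% of them were well above background. A level is the log2 of the signal divided by this percentile. It can be compared between the tumours for a probe, and not between probes or genes.

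Of the 33 spots of the Notch genes, 24 lay away from flags, 8 were unflagged but near a flag, and 1, a spot of Dll1, was flagged. Notch1, Notch2, Notch4, Dll1, Jag1, Hes1 and Heyl had at least 1 spot away from flags. Notch3, Dll4 and Hey1 had none, so their values are the less certain ones.

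**Figure D1:**
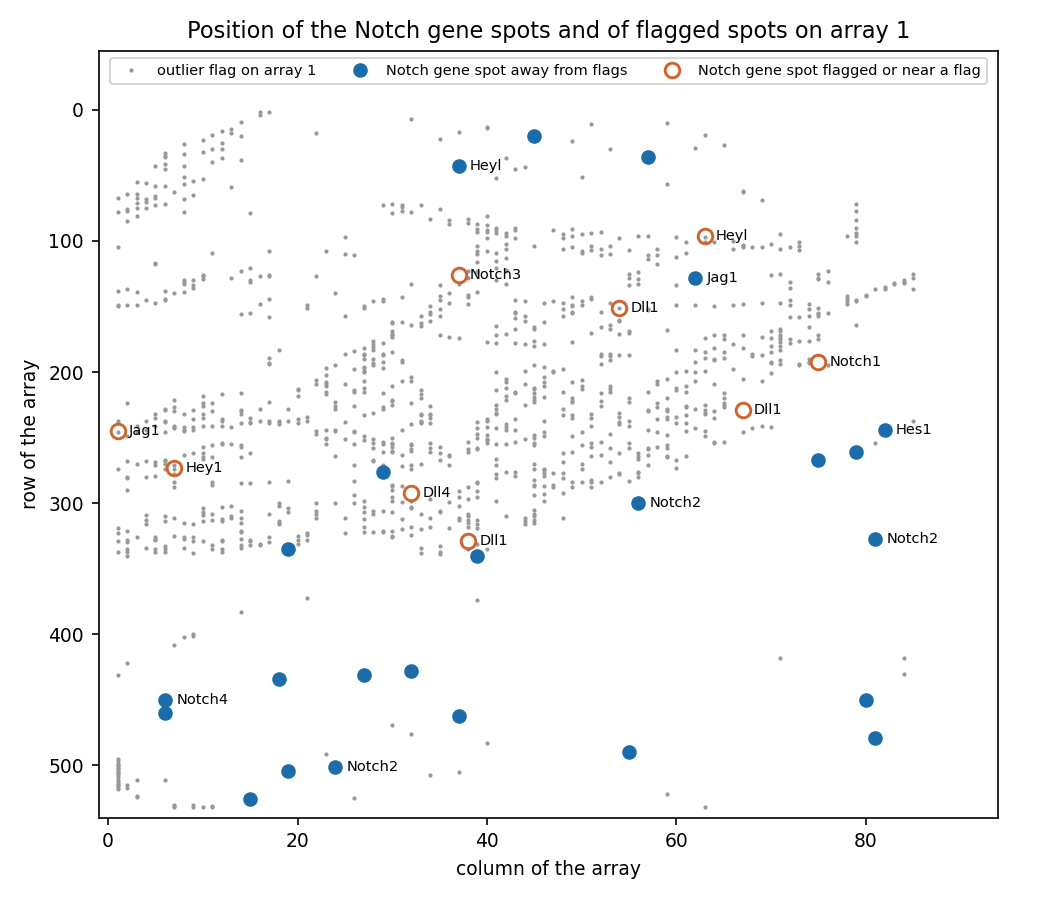
Positions of the 33 Notch gene spots on array 1 by row and column, with outlier-flagged spots as grey dots. Filled blue circles are the 24 spots away from flags and open orange circles the 9 that are flagged or near a flag, among them the only spots of Notch3, Dll4 and Hey1.

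All 33 spots were well above background on both arrays and none was saturated. All 7 genes with a spot away from flags were thus detected in both tumours, as were 70.0% of the 15038 genes with a symbol that had such a spot. With every unflagged spot all 10 were detected, against 68.7% of 18127 genes. RNA of the whole tumour mixes RMS3 cells with host cells, and in such bulk samples fewer cells of a type and less RNA per cell cannot be told apart. None of the 7 measured genes was at least 2-fold apart between the tumours, against 4.57% of 10523 measured genes. At least 2-fold higher in tumour 2 were 2.69% of all genes and at least 2-fold higher in tumour 1 were 1.88%. Of these calls 58.8% were thus towards tumour 2, a share that was 39.4% in the unscaled value table. With differences of any size, 5 of the 7 Notch genes were higher in tumour 2, against 53.1% of all measured genes.

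**Figure D2:**
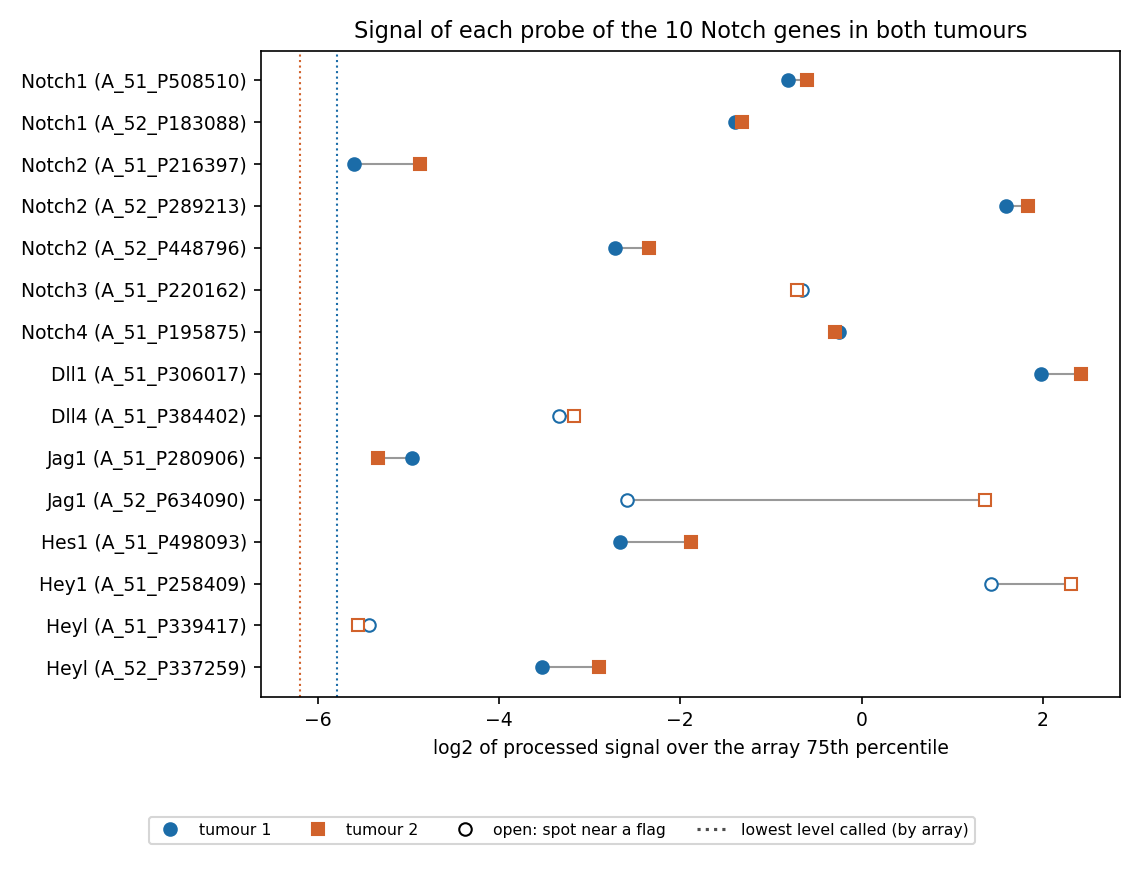
Level of each of the 15 probes in tumour 1 (circles) and tumour 2 (squares), as the log2 signal scaled to each array's 75th percentile, with open symbols for spots near a flag and dotted lines at the lowest level called well above background on each array. Hes1 and the filled Heyl probe lie to the right in tumour 2, Notch3 and Notch4 nearly coincide, and the open Jag1 probe spans from -2.58 to 1.36.

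Notch1, the receptor best known for its part in cell fate choices, was measured by 2 probes. The first was printed 10 times, and its 9 spots away from flags gave signals of 513 to 624 in tumour 1 and 558.7 to 636.6 in tumour 2. Its level averaged -0.81 in tumour 1 and -0.61 in tumour 2, or -0.71 ± 0.15 (SD, n = 2). The signal ranges overlapped, but after scaling every one of the 9 spots was higher in tumour 2, by 0.10 to 0.28. The mean difference was 0.21 with an SD between spots of 0.05. The second Notch1 probe, a single spot, gave 379 and 362.4, which after scaling is 0.08 higher in tumour 2. The gene as a whole was 0.14 higher in tumour 2, and 37.2% of all measured genes were higher there by at least as much. This small difference turned to -0.05 with all unflagged spots on their own scale, where the median of all genes was -0.14. It was 0.0002 in the unscaled value table, where that median was -0.12. Notch1 lay above the median of all genes in each of the 14 alternative settings.

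Notch2, a receptor with broad expression, had 3 probes, all away from flags. Probe A_52_P289213 gave a signal of 2990 in tumour 1 and 3215 in tumour 2, and probe A_52_P448796 gave 151 and 178.2. Probe A_51_P216397 was dim, at 20.5 and 30.9, with an error of 20.3% and 13.2% stated by the scanner software. All 3 probes were higher in tumour 2, by 0.25, 0.38 and 0.73 in this order, and the dimmest differed most. The lowest level called well above background was -5.78 on array 1, and the dim probe lay at -5.60 there. The median difference of the gene was 0.38, a 1.30-fold difference, and its level was -2.53 ± 0.27 (SD, n = 2). The gap of 0.49 between its highest and lowest probe was reached or passed by 36.4% of the 3188 genes with several measured probes.

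Notch4, the receptor typical of endothelium, gave a signal of 836 in tumour 1 and 733.9 in tumour 2. Its levels were -0.25 and -0.30, a mean of -0.27 ± 0.03 (SD, n = 2). The difference of -0.05 was the smallest in size of the 7 genes, and it was 0.01 after the local median difference was subtracted. Notch3, the receptor typical of mural cells, was read from 1 spot that lay 2 steps from a flag. Its signals were 631 (tumour 1) and 551.0 (tumour 2), which gave levels of -0.66 and -0.71 and a difference of -0.05. The spots around it, within 10 rows and columns, had a median difference of 0.03. Notch4 and Notch3 thus each had nearly the same level in both tumours on this scale. With all unflagged spots and their own scale both were lower in tumour 2, Notch4 by -0.24 and Notch3 by -0.25, where the median of all genes was -0.14.

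Dll1, a Delta-like ligand that muscle stem cells and their progeny are known to use, was also printed 10 times. Its 7 spots away from flags gave 3560 to 4560 in tumour 1 and 4529 to 5240 in tumour 2. These signal ranges overlapped slightly. On the scaled axis the spots ran from 1.84 to 2.20 in tumour 1 and from 2.33 to 2.54 in tumour 2. Only after this scaling did the spots of the 2 arrays not overlap. The level was 2.20 ± 0.31 (SD, n = 2). All 7 spots were higher in tumour 2, by 0.34 to 0.52, with a mean of 0.44 (1.35-fold) and an SD of 0.07. This SD was close to the median of 0.07 over 175 probes with repeat spots. The spots at rows 276 and 340 were the brightest of the 7 on both arrays, at 2.19 and 2.20 in tumour 1 and both at 2.54 in tumour 2. These spots were thus bright on both arrays, and the difference varied less between spots (SD 0.07) than the level in tumour 1 did (SD 0.15).

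The remaining 3 spots of Dll1 lay near or at a flag. The 2 unflagged spots at 2 steps from a flag differed by 0.35 each, within the range of the kept spots. The flagged spot gave 2740 on array 1, below all others, and 5350 on array 2, above all others, so that it differed by 1.11. Of all measured genes, 15.2% were higher in tumour 2 by at least the 0.44 of Dll1. Over the 14 alternative settings the difference of Dll1 stayed above 0, from 0.22 to 0.49. It was 0.30 in the unscaled value table.

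**Figure D3:**
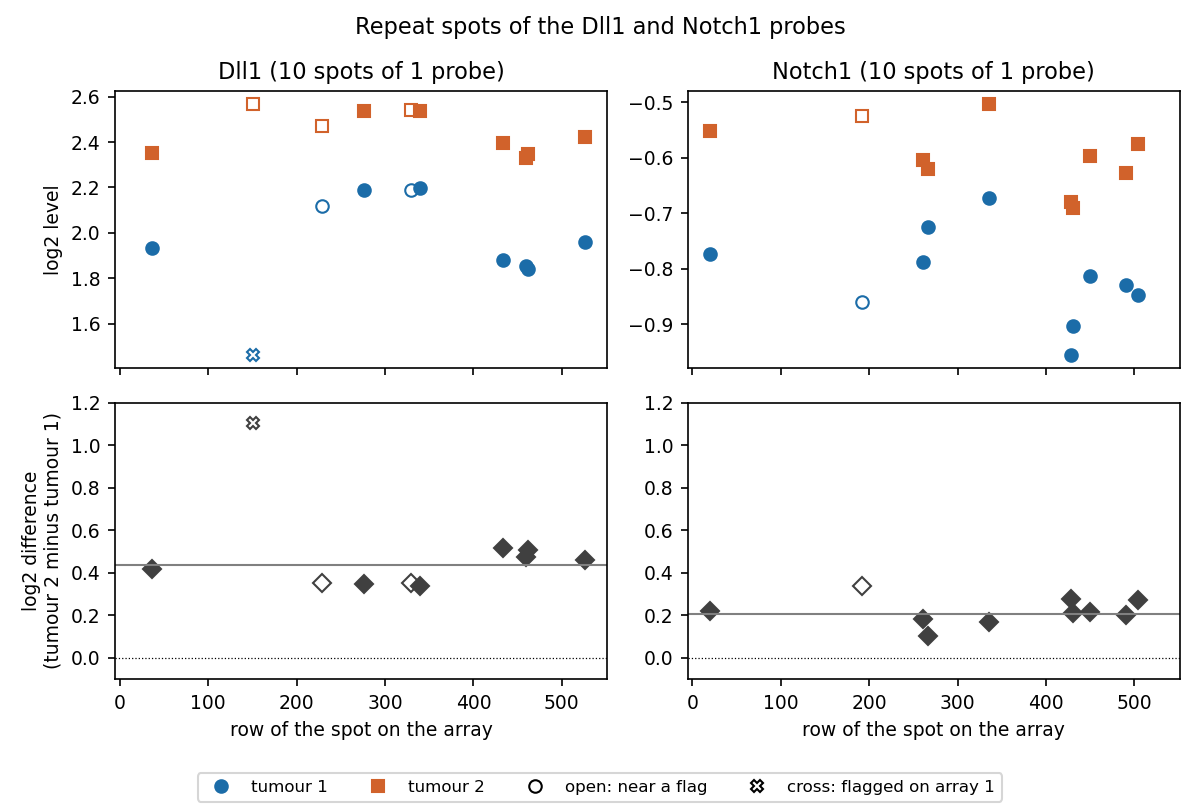
The 10 spots of the Dll1 probe (left) and of the repeated Notch1 probe (right) by their row on the array: log2 level in each tumour above, log2 difference below, with the mean of the filled spots as a grey line. All filled spots have a difference above 0, around 0.44 for Dll1 and 0.21 for Notch1, and the flagged Dll1 spot stands apart at 1.11.

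Dll4, the Delta-like ligand of endothelial tip cells, had 1 spot, 2 steps from a flag. It gave 98.6 in tumour 1 and 99.7 in tumour 2, levels of -3.34 and -3.18. The difference of 0.16 lay below the local median of 0.25 and turned to -0.04 with all unflagged spots on their own scale. The direction for Dll4 therefore depended on the scale.

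Jag1, a Jagged ligand of vessel wall and other tissues, had 2 probes that went opposite ways. Probe A_51_P280906, away from flags, gave 31.9 in tumour 1 and 22.4 in tumour 2, with software errors of 16.7% and 16.3%. Its levels of -4.96 and -5.33 lay near the lowest called, -5.78 on array 1 and -6.19 on array 2, and the difference was -0.37. The signals of probe A_52_P634090 were 166 and 2316, which is 3.94 higher in tumour 2 after scaling. That spot sits in column 1 of the array, 1 step from a flag, and the 6 spots well above background within 2 rows and columns of it had a median difference of 2.10. A difference that large was found for 3.29% of the spots near flags and for 0.0977% of those away from them. Jag1 was therefore detected in both tumours with no settled direction. The median of both probes was 1.59 when all unflagged spots counted, and the kept probe alone differed by -0.03 after normexp background correction.

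Hes1, a repressor widely used as a readout of Notch activity, differed most among the genes measured away from flags. Its single spot gave 157 in tumour 1 and 245.3 in tumour 2. The levels were -2.66 and -1.88, a mean of -2.27 ± 0.56 (SD, n = 2), and the difference was 0.79 (1.72-fold). The spots around it had a median difference of -0.07. The difference between spots of 1 probe, pooled over 175 repeated probes with 1249 spots, had an SD of 0.23. The value for Hes1 was larger than that, but this SD covers spots within these arrays and not the spread between tumours or arrays. As large a difference towards tumour 2 was seen for 5.05% of all measured genes. Over 12 alternatives that kept the spot it ran from 0.59 to 0.84.

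Heyl, a Hey family repressor known from vessel walls and muscle, had 2 probes. Probe A_52_P337259, away from flags, gave 86.3 in tumour 1 and 121.1 in tumour 2, levels of -3.53 and -2.90 and a difference of 0.63 (1.55-fold). Probe A_51_P339417, 1 step from a flag and dim, gave 23.1 and 19.2, a difference of -0.13 with software errors of 21.8% and 18.8%. The probes thus disagreed in direction, and with all unflagged spots their median was 0.05. The level from the first probe was -3.21 ± 0.45 (SD, n = 2), and 7.99% of all genes were higher in tumour 2 by at least 0.63.

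Hey1, its relative, had 1 spot at 1 step from a flag. It gave 2680 in tumour 1 and 4485 in tumour 2, levels of 1.43 and 2.31. The difference was 0.88, and a difference at least as large was found for 23.9% of the unflagged spots near flags but 3.85% of those away from them. The 11 spots well above background within 2 rows and columns had a median difference of 0.51. Of the 3 target genes, Hes1 was thus higher in tumour 2 on a spot away from flags, the 2 probes of Heyl went opposite ways, and Hey1 was read near a flag only.

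Across the 7 genes measured away from flags the differences ran from -0.37 for Jag1 to 0.79 for Hes1. Their median was 0.38, against 0.02 for all 10523 measured genes, whose central 50% lay between -0.22 and 0.28. The median was 0.12 over all 10 genes with all unflagged spots, where the median of all genes was -0.14.

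**Figure D4:**
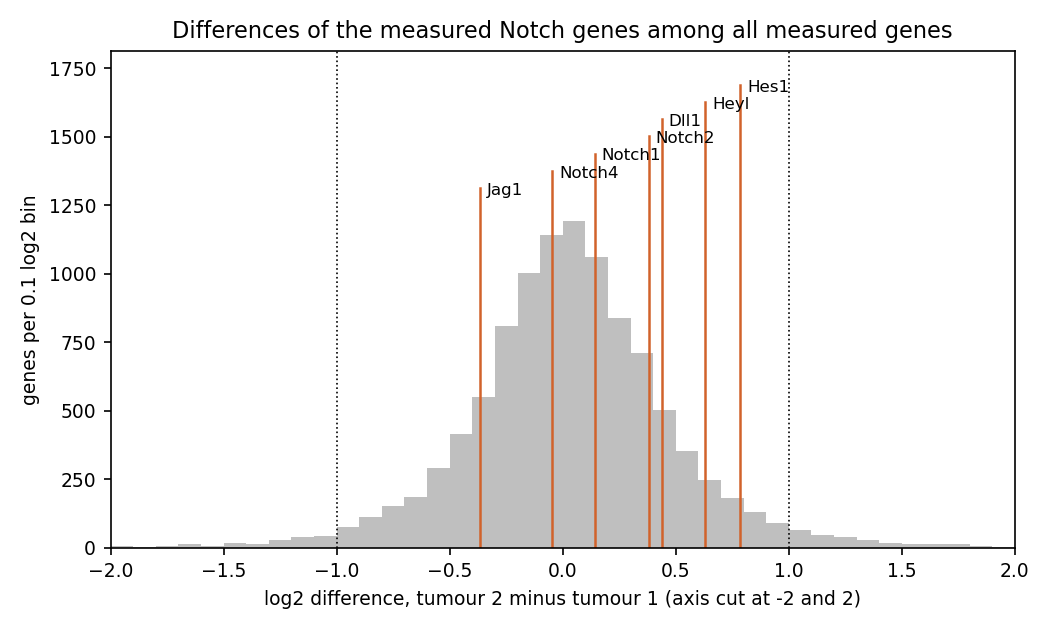
Histogram of the log2 difference (tumour 2 minus tumour 1) over all measured genes in bins of 0.1, with orange lines for the 7 Notch genes and dotted lines at a 2-fold difference; 63 genes lie outside the axis. All 7 lines fall inside the dotted limits, with Jag1 at -0.37 and Hes1 at 0.79 at the ends.

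The other genes of the pathway were taken from lists written by role. Of 57 listed genes 56 were on the array, 46 had a spot away from flags and 39 were measured in both tumours. Their median difference was 0.17, with 25 higher in tumour 2 and 14 higher in tumour 1, and 1 of them was at least 2-fold apart. These shares compare with 53.1% of all genes higher in tumour 2 and 4.57% at least 2-fold apart.

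Of 5 other ligands and related proteins 2 were measured, with a median of 0.20 and 1 higher in each tumour. Dlk1, an EGF-like protein of fetal muscle, lay at -0.86 in tumour 1 and -0.94 in tumour 2. Dll3 was not well above background on both arrays and Jag2 had spots only near flags. Of 10 proteases that cut Notch 7 were measured, 6 higher in tumour 2, with a median of 0.19. Adam10, which makes the first cut after ligand binding, differed by 0.18, Adam17 by 0.51 and the convertase Furin by 0.26. Of 5 enzymes that add sugars to the receptors 2 were measured, Pofut1 at 0.17 and Poglut1 at -0.11, with a median of 0.03, while the fringe enzyme Lfng was not well above background on both arrays.

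The nuclear complex was measured for 7 of 8 genes, 4 of them higher in tumour 2, with a median of 0.15. Rbpj, the DNA-binding partner of cleaved Notch, had levels of 2.69 and 3.04 and was 0.35 higher in tumour 2. Its coactivator Maml2 differed by -0.20, and Maml1 had spots only near flags. Maml3 was the gene at least 2-fold apart, at -5.40 in tumour 1 and -4.10 in tumour 2 (1.31, 2.47-fold). Its level in tumour 1 was near -5.78, the limit of array 1 given above for Notch2, and after normexp background correction no gene of these lists was at least 2-fold apart.

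Of 9 corepressors 7 were measured, 4 higher in tumour 2, with a median of 0.25. Spen, a repressor that binds Rbpj, differed by 0.37 and Ncor1 by -0.23, the median of 2 probes at -0.47 and 0.01. Of 11 genes of endocytosis and turnover 10 were measured, 6 higher in tumour 2, with a median of 0.09. Away from flags the Notch inhibitor Numb was above background on array 2 only. With all unflagged spots 2 of its probes were above background on both arrays. Numb then differed by 1.19, where the median of all genes was -0.14. This value rests on spots near flags. Of such spots above background on both arrays, 21.8% were at least 2-fold higher in tumour 2, against 2.76% farther away. Numbl, a relative of Numb, differed by 0.09 away from flags, and the ligase Mib1, which activates ligands, by -0.75. Of 9 further genes listed as targets 4 were measured, 3 higher in tumour 2, with a median of 0.26. Hes6, a Hes relative of differentiating cells, was 0.74 higher in tumour 2 by 1 probe, and 0.37 higher by 2 probes with all unflagged spots. The other measured genes of this list were Nrarp at -0.005, Ccnd1 at 0.08 and Nfkb2 at 0.45. Hes7 was not well above background on both arrays and Hes5 had spots only near flags.

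**Figure D5:**
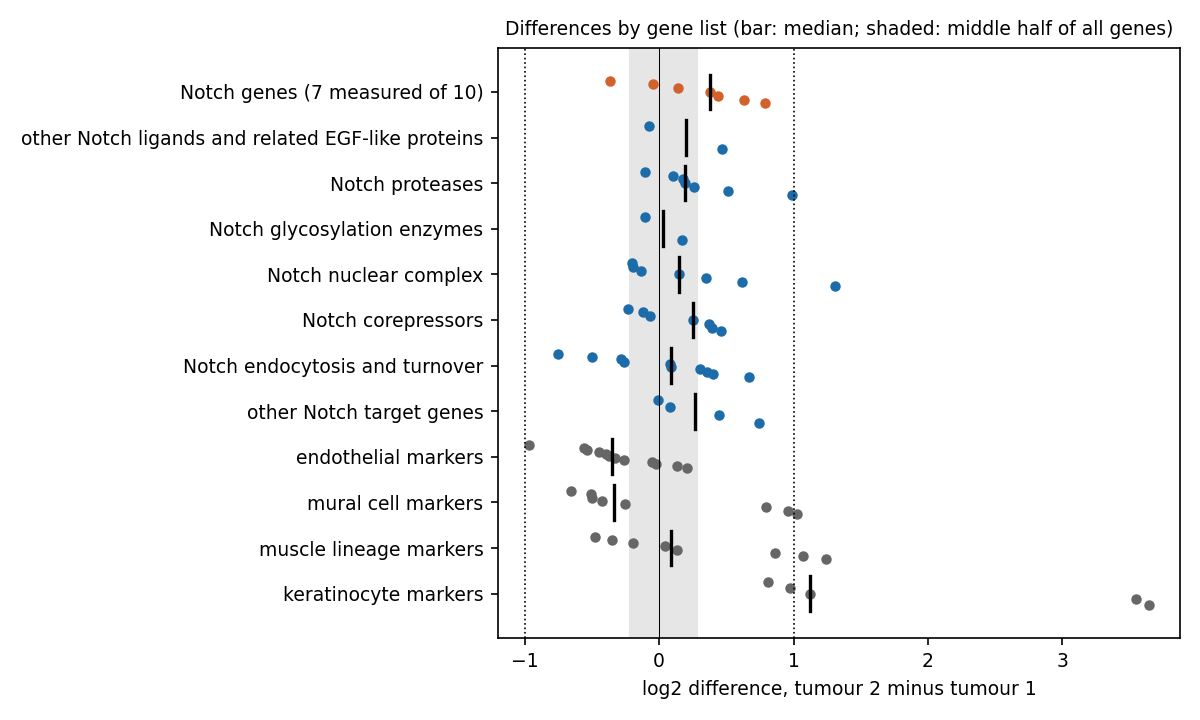
Log2 difference (tumour 2 minus tumour 1) of each measured gene by list: orange for the Notch genes, blue for the other pathway lists and grey for cell type markers, with black bars at medians, shading over the central 50% of all genes and dotted lines at a 2-fold difference. The pathway lists have medians between 0.03 and 0.26, while endothelial markers centre on -0.35 and keratinocyte markers on 1.12.

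Markers of other cell types that a tumour can hold were read in the same way. Of the 12 endothelial markers all were measured, 2 of them higher in tumour 2, against 53.1% of all genes, and 10 higher in tumour 1. None was at least 2-fold apart, and their median was -0.35. Pecam1 differed by -0.03, Cdh5 by -0.26 and Kdr by -0.45. The summed level of the list was 18.4 in tumour 1 and 14.5 in tumour 2 on a linear scale relative to the array's 75th percentile. In such a sum the brightest probes weigh most, so it does not measure the amount of a cell type. Of 10 mural cell markers 8 were measured, with a median of -0.34 and sums of 8.61 and 8.16. Rgs5 (0.96), Cspg4 (0.79) and Tagln (1.03) were the 3 higher in tumour 2. The 5 higher in tumour 1 were Acta2 at -0.51, Cnn1 at -0.25, Abcc9 at -0.50, Kcnj8 at -0.42 and Mcam at -0.65. For Acta2 this is a median of 3 probes that disagreed in direction, from -0.87 to 0.73. Myh11 was not well above background on both arrays and Pdgfrb had spots only near flags. The part of vessel cells in the values of Notch4, Notch3, Dll4 and Heyl was not tested.

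Of 7 keratinocyte markers 5 were measured, all higher in tumour 2, with a median of 1.12 and sums of 0.843 and 2.57. Krt5 differed by 3.55, Krt14 by 3.64 and Perp by 1.12, Krt15 had spots only near flags and Trp63 was not well above background on both arrays. In tumour 1 Krt5 was dim, at -5.21, near the lowest level called on array 1, -5.78. Of 10 muscle lineage markers 8 were measured, Myod1 at -0.35, Myog at 0.13, Myh3 at 1.07 and Des at 1.24, with a median of 0.09, 5 higher in tumour 2 and 3 higher in tumour 1. Their sums were 1.42 and 1.98, and the higher sum in tumour 2 came mostly from Myh3 and Des. The others higher in tumour 1 were Myf6 at -0.48 and Pax3 at -0.19, whose 2 probes disagreed in direction (-0.54 and 0.16). Myod1 was dim, with levels of -5.24 and -5.59 near the lowest called, -5.78 on array 1 and -6.19 on array 2. Myf5 and Pax7 were not well above background on both arrays. Of 6 macrophage markers 5 were measured, with Adgre1 at -0.64, Cd68 at 0.22, a median of -0.03 and sums of 7.92 and 7.68. Csf1r was not well above background away from flags. Of 6 T cell markers 2 were measured, Cd3e at 0.24 and Lck at -0.43, with a median of -0.09 and sums of 0.0822 and 0.0748, and Cd3g, Cd4 and Cd8a were not well above background. The keratinocyte and muscle lineage sums were thus higher in tumour 2, as Hes1 and Dll1 were. The sums of the other marker lists were lower there. The part of any of these cell types in the values of Hes1 and Dll1 was not tested.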

How the data were processed

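Total RNA (1.0 µg per tumour) was extracted with Trizol and labelled with Cy3 by the Quick Amp kit, per the labels' protocols. The deposited intensity values (processed signal, its error, mean signal and local background) come from Agilent Feature Extraction. The version is 9.1.3.1 per the file headers, but 8 per the submitters' processing notes. The software removed spatial and multiplicative trends and replaced low values by surrogates, per the file headers. The deposited value table equalled the processed signal intensity at all 45018 spots of both arrays (linear, uncentred, medians 63.3 and 67.5).

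Processed signals were divided by the 75th percentile of the kept non-control spots of their array and put on a log2 scale. Left out were flagged spots and those at most 2 rows and columns from either a spot flagged on array 1 or one with local background over 100 on array 2. Spots of a probe were averaged, and a probe counted when at least 50% of its spots were well above background on both arrays. A gene's difference was the median over such unsaturated probes. Symbols came from RefSeq by accession or else from the file of tumour 2. The Notch genes were matched by the file's name, which was the same in both files for all 33 spots.

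The 10 genes, the gene lists and the spot filter were chosen with earlier results of these data known. The text could name all 10 genes, the first 3 of each other list and any listed gene at least 2-fold apart; Perp, Tagln, Maml3, Myh3 and Des entered by the latter, and 1 gene that the rule names is not reported here. Acta2, Cnn1, Abcc9, Kcnj8, Mcam, Myh11, Myf6, Pax3, Pax7, Trp63, Lck, Cd4, Cd8a and Psen2 were named after their values were seen. So were Nrarp, Ccnd1 and Nfkb2. No test was run, since there is 1 group of 2 tumours; precision is limited by the number of arrays. Alternatives covered the spot filter, background correction (normexp, offset 50), scaling (quantile, loess with span 0.3), detection calls and probe summaries. The scaling and gene summary were tested on simulated data, made from array 2 alone with known differences and random noise added. That test did not cover the spot filter or the defects of array 1. Python 3.11.15 was used, and limma 3.58.1 in R 4.3.3 for the alternative scalings and normexp.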

Additional observations from a re-analysis of the deposited data

How the results depend on the processing

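No paired analysis was possible because there is 1 group only. The count of Notch genes detected in both tumours (7) was 4 in the lower rows of the arrays and 4 with the brighter 50% of probes. Fewer genes had a probe left there. Leaving out either tumour could not change the count of 7, since all 7 were detected on both arrays, so this was no check. The count at least 2-fold apart (0) was 1 with all unflagged spots (Jag1), and the median difference was 0.12 there. The count of other pathway genes at least 2-fold apart (1) was 5 with all unflagged spots, 3 with the other detection call, 3 without a filter on dim probes, 2 after quantile scaling, 2 after loess, 0 after normexp and 0 with the brighter probes. The cause was not tested. Of the other values, 167 kept within the spread and 24 moved: the difference of Jag1 (1.59 with all unflagged spots, -0.03 after normexp), that of Heyl (0.05 with all unflagged spots), and otherwise levels.

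Over all genes, 2-fold calls towards tumour 2 (283) and towards tumour 1 (198) became 666 and 414 with all unflagged spots, 618 and 522 without a filter, 473 and 388 with the other call, 200 and 307 in the unscaled table, 169 and 155 with 5 steps around flags, 127 and 113 in the lower rows, 126 and 66 after normexp, and 82 and 47 with the brighter probes. The median of all genes moved from 0.02 to -0.14 with all unflagged spots and to -0.12 in the unscaled table. Notch genes above that median were 5 of 7, and under the alternatives 8 of 10 with all unflagged spots, 6 of 7 without a filter, 3 of 4 in the lower rows and with the brighter probes, and 5 of 7 in the other 10. Subtracting the local median difference was an alternative chosen after seeing the data.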

Other observations

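Of the other pathway genes 10 had every spot near a flag. With all unflagged spots on their own scale, Jag2 differed by 0.27 and Maml1 by 0.20 (tumour 2 minus tumour 1), where the median of all genes was -0.14. Psen2, a gamma-secretase subunit named after its value was seen, differed by 2.27 there and has no spot away from flags to compare. Of unflagged spots near flags and above background on both arrays, 21.8% were at least 2-fold higher in tumour 2.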
